A study of Citrus sinensis with 10 samples.

Results

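Of the 5856 cDNA clones on a sweet orange (Citrus sinensis) array, 127 had at least 2-fold less signal in the red-fleshed mutant than in its wild type at both 150 and 190 days after flowering. They were chosen by a log2 ratio of mutant over wild type of -1 or lower on both arrays of 150 days and both arrays of 190 days. The ratios of these 4 arrays are therefore described without a test. The test of the mean ratio uses only 120, 170 and 220 days, while the slope of the level also includes the signal of these 4 arrays. Fruit RNA of Hong Anliu, the mutant, was hybridised with fruit RNA of Anliu, the wild type, at 120, 150, 170, 190 and 220 days. Each day had 2 arrays with exchanged dyes, which made 10 arrays and 5 paired collections. The labels name no treatment and no tree, tissue of the fruit or pooling, so p-values measure the spread between collections of different days only. Hong Anliu is 1 line, so its differences from Anliu cannot be told apart from those of other stocks or trees.

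A bud mutant arises when a changed cell in a shoot grows into a branch that is then kept by grafting, so that mutant and parent share nearly all of their genome. The red flesh of Hong Anliu comes from lycopene, a red carotenoid that most sweet oranges convert onward to yellow and orange carotenoids. During ripening, citrus fruit also breaks down chlorophyll, stores sugars, uses up citric acid and remodels its cell walls. A cDNA array carries clones picked from libraries of fruit transcripts. An abundant transcript is often cloned many times, and several clones can then hold the same gene. The clones are named here by plate, row and column, and the files do not pair them with genes. No role, sequence or check of tissue markers can therefore be given, and the number of distinct genes among the 127 is unknown.

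Ratios have as their 0 the loess curve through all clones of the same array. With control spots Y1 to Y4 as the centre instead, the median over all clones would move by -2.03, -0.24, -0.61, -0.21 and 1.14 from 120 to 220 days, so no direction here is an absolute one. A ratio in fruit RNA also cannot separate less RNA per cell from fewer cells of a type. All 127 clones were above the blank spots in either dye on at least 5 arrays, as were 5852 of all clones. On 1 array at 120 days and 1 at 170 days, 1 of the 127 was not above the blank spots in the mutant channel. In the wild-type channel of 1 array at 220 days, 7 were not. The ratios of dye-swapped arrays correlated over the 127 clones at r = 0.92, 0.85, 0.97, 0.96 and 0.98 from 120 to 220 days, as a description across clones of shared arrays.

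The direction at 170 days carries a doubt. Over all clones the mean ratios of 170 days correlated at -0.31 with those of 150 days, -0.27 with 190 days and -0.51 with 220 days, but at 0.20 with those of 120 days. The ratios of 120 and 220 days correlated at -0.38. Between arrays of equal dye orientation the correlation with 150 days was -0.32 and -0.28. Over the 127 clones alone, single arrays of 170 days correlated positively with those of 150 days (0.45 to 0.53), 190 days (0.67 to 0.71) and 220 days (0.48 to 0.54). The 127 were chosen on the arrays of 150 and 190 days, so these values depend on the choice. They are a description and cannot settle the direction at 170 days. The labels state the dyes of both arrays, so their direction was kept, and results at 170 days are also given with the sign turned.

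The choice depended on the normalization: 97 of the 127 met the limit with median centring, 74 in the authors' series table and 65 with loess within printing blocks. At the 2 days that chose them, the 127 clones ranged in mean log2 ratio from -3.07 to -1.02 at 150 days, with a median of -1.27. At 190 days the 127 clones ranged from -3.87 to -1.02, with a median of -1.37. At 150 days 325 clones met the limit, 5.55% of those measured, and at 190 days 281 did, or 4.80%. The limit in the other direction was met by 7.17% of clones at 150 days and 6.22% at 190 days, and the choice itself keeps these out of the 127. The 127 shared clones make up 39.1% of the first list and 45.2% of the second. Most lay near the limit. In 84 clones the highest of the 4 values was between -1.2 and -1, in 20 between -1.5 and -1.2, in 15 between -2 and -1.5, and in 8 at -2 or lower. A further 136 clones missed the limit with a highest value between -1 and -0.8. Just inside, 52.E.9, 33.F.10 and 37.B.2 had a highest value of -1.0, and just outside, 37.B.7, 33.B.5 and 53.F.11 had -0.99.

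On the other 3 days the clones parted ways. Their median log2 ratio was -0.45, 0.08 and 0.05 at 120, 170 and 220 days, against 0.00, 0.03 and -0.06 over all clones. The median at 170 days was -0.015 with loess within printing blocks and -0.07 in the authors' series table. With median centring the median at 120 days was -0.22, and in the authors' series table that at 220 days was 0.20. At 120 days 118 of the 127 were below 0 on both arrays, against 43.1% of all clones. At 170 days 34 were below 0 and 73 above 0 on both arrays, against 44.9% and 47.0% of all clones. With the sign at 170 days turned, these counts change places. At 220 days 59 were below and 61 above, against 44.0% and 38.3% of all clones. The shift at 120 days thus involved most of the 127 and was small, while at 220 days the clones fell on both sides of 0. Over all clones the ratios of 120 days correlated with those of 150 days at r = 0.37, and those of 220 days with those of 190 days at r = 0.17.

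Past 2-fold on both arrays, 5, 19 and 35 of the 127 were lower at 120, 170 and 220 days, against a background over all clones of 5.19%, 17.0% and 2.19%. The members' shares were 3.94% at 120 days and 15.0% at 170 days, near the background, and 27.6% at 220 days. At 120 days 17 of the 127, or 13.4%, were lower in the authors' series table, against 5.96% of all clones. The 35 clones also make up 27.3% of the 128 clones lower at 220 days. In the other direction, 2 clones were 2-fold higher at 120 days, 7 at 170 days and 0 at 220 days, against backgrounds of 3.64%, 7.94% and 4.37%. With the sign at 170 days turned, 7 would be lower and 19 higher there. A single day has 1 pair of collections, so these counts carry no test.

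**Figure D1:**
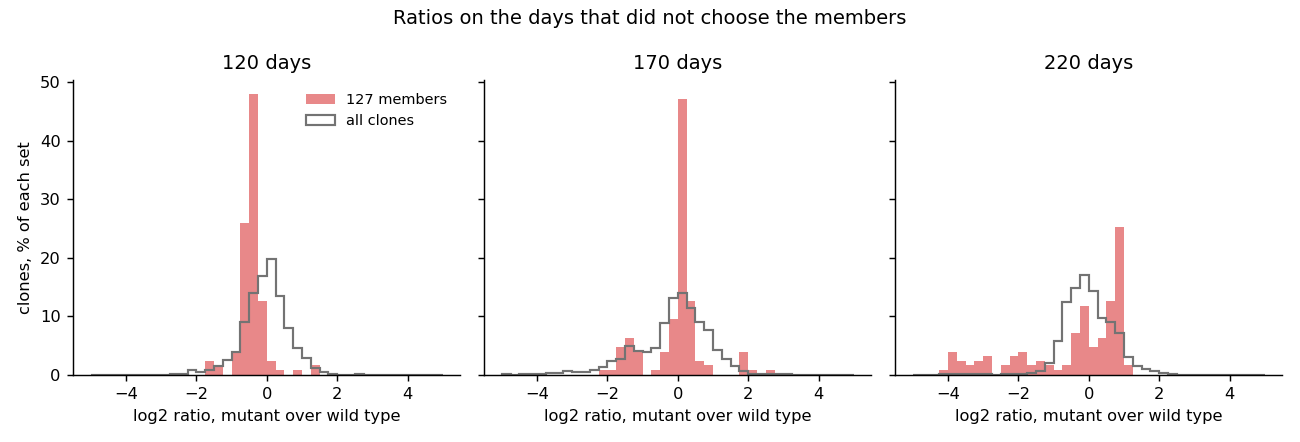
Log2 ratio of Hong Anliu over Anliu at 120, 170 and 220 days (x axis, mean of both arrays of a day) against the percent of clones in each bin (y axis), with filled bars for the 127 clones and an outline for all clones. The 127 lie mostly just below 0 at 120 days, with a median of -0.45, and at 220 days spread from -4.01 to 1.04.

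The mean ratio over 120, 170 and 220 days was tested for all clones with limma, with 1 value per day (n = 3 collections). The 3 collections differ in age, so their spread includes any change of the ratio with age. A clone whose ratio changes with age can thus miss the threshold, and a high p is not a sign of no difference. No clone passed the adjusted threshold of 0.05, which is 0.00% of 5852, and the smallest adjusted p from limma was 0.9999. At an unadjusted p under 0.05, 21 of the 127 were lower and 0 higher, against 0.478% lower and 0.171% higher over all clones. These 21 are 16.5% of the members and 21 of the 28 lower clones, with mean log2 ratios between -2.0 and -1.2. Of the 87 members past 2-fold on none of these 3 days, 0 were among the 21. In either direction the number of members under this p was 4 without 220 days, or 3.15% of them, against 7.84% of all clones. It was 6 with the sign at 170 days turned, or 4.72%, against 5.49%, so neither setting showed more calls among the members. It was 31 without 170 days, or 24.4%, against 1.28%, and 13 when centred on the control spots, of 14 in all. With a trended, robust variance 0 of the members and 0 of all clones passed. On all 6 arrays of these days 28 of the 127 were below 0, against 3.83% of all clones, and 0 were above 0, against 2.0%.

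By their calls on the other 3 days, the 127 clones fell into 8 sets. The set of 87 was past 2-fold on no other day. A set of 18 was also lower at 170 and 220 days, and a set of 9 also at 220 days. In a set of 6 the ratio was higher at 170 days and lower at 220 days. A set of 4 was also lower at 120 days and past 2-fold on neither of the others. The last 3 sets hold 1 clone each, 17.D.8, 29.B.10 and 31.B.2. The calls that define a set are a description of it, and no test compares the sets. Of the 21 clones with a lower mean ratio at an unadjusted p under 0.05 from limma, the set of 18 held 18. The set of 9 held 2, 31.B.2 was 1 and the set of 87 held 0. The set of 18 is defined by low ratios at 170 and 220 days, which that mean includes.

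**Figure D2:**
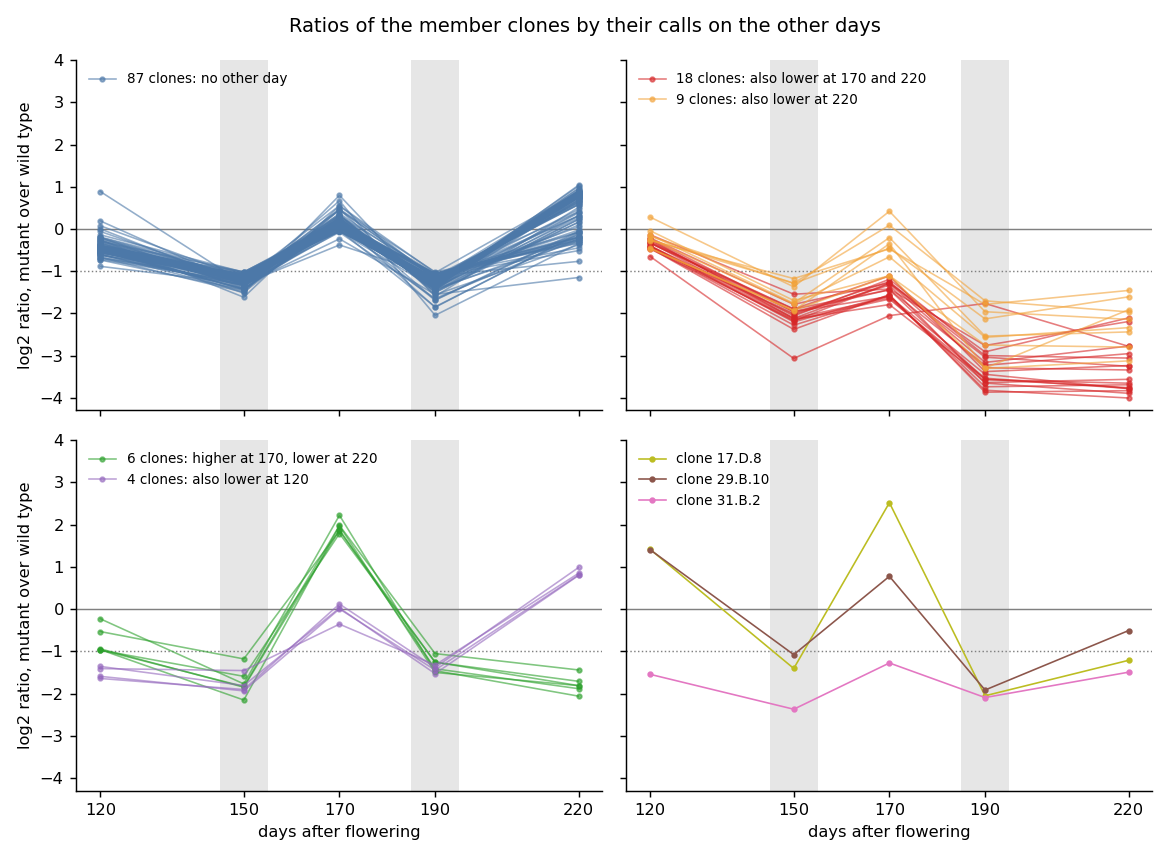
Mean log2 ratio of Hong Anliu over Anliu (y axis) by day after flowering (x axis), with 1 line per clone, coloured by set; grey bands mark the choosing days and the dotted line a ratio of -1. At 220 days the lines of the set of 18 lie between -4.01 and -2.11, and the median of the set of 87 is 0.58.

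The set of 18 held the clones with the lowest ratios. Its median log2 ratio was -0.37 ± 0.12, -2.09 ± 0.31, -1.44 ± 0.23, -3.41 ± 0.50 and -3.45 ± 0.57 from 120 to 220 days (± SD over 18 clones). At 220 days the array with the mutant in Cy5 gave -3.83, -3.28 and -2.01 as the lowest, median and highest value. The array with the mutant in Cy3 gave -4.40, -3.67 and -2.21 there. Mutant signal was thus well below wild-type signal on both dye orientations at 220 days, while at 120 days none of the 18 was 2-fold lower. At 170 days the direction of this set rests on the labelled dyes: with the sign turned it would be higher there.

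Clone 46.G.10 had the lowest ratios at the 2 choosing days together. At 120 days its log2 ratio was -0.54 and -0.37, at 150 days -2.17 and -2.59, and at 170 days -1.62 and -1.49, with the mutant in Cy5 and then in Cy3. At 190 days it was -3.85 and -3.89, and at 220 days -3.54 and -4.12. All 10 values were below 0, with the smallest at 120 days and the largest departures on the last 2 days, where mutant signal was 14.6-fold and 14.2-fold lower. The mean over 120, 170 and 220 days was -1.95 ± 1.72 (SD, n = 3 collections), and the limma fit gave it an SE of 0.61 and an adjusted p of 0.9999. That SD includes the change of the ratio from 120 to 220 days.

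The next lowest clone, 46.E.10, ran almost in parallel. Its log2 ratio was -0.42 and -0.38 at 120 days, -2.18 and -2.23 at 150 days, and -1.59 and -1.56 at 170 days. At 190 days it was -3.66 and -3.98, and at 220 days -3.62 and -4.40, the lowest value of any of the 127 on 1 array. Signal was 14.1-fold lower at 190 days and 16.1-fold lower at 220 days. The same course held in 40.E.1, 35.C.1, 30.H.12, 60.E.11 and 46.B.12, whose signal was 10.9-fold to 13.4-fold lower at 190 days and 11.8-fold to 13.8-fold lower at 220 days. At 120 days these 5 were 1.25-fold to 1.39-fold lower.

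Over the 10 arrays, the clones most like 46.G.10 were 47.D.3 (r = 0.994), 35.C.1 (0.993), 40.E.1 (0.993), 46.E.10 (0.993) and 47.B.1 (0.992), all of the same set. Of the 18 clones, 17 came from plates 30 to 61. The exception, 15.H.6, had another course. Its ratio was -0.66 and -0.65 at 120 days, -2.69 and -3.45 at 150 days and -2.18 and -1.92 at 170 days. It was then -1.73 and -1.81 at 190 days and -2.71 and -2.86 at 220 days. This clone was lowest at 150 days, where the other 17 were higher than at 190 days, and it was the lowest of the 127 at 170 days. With the sign turned, it would be the highest there, at 2.05.

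**Figure D3:**
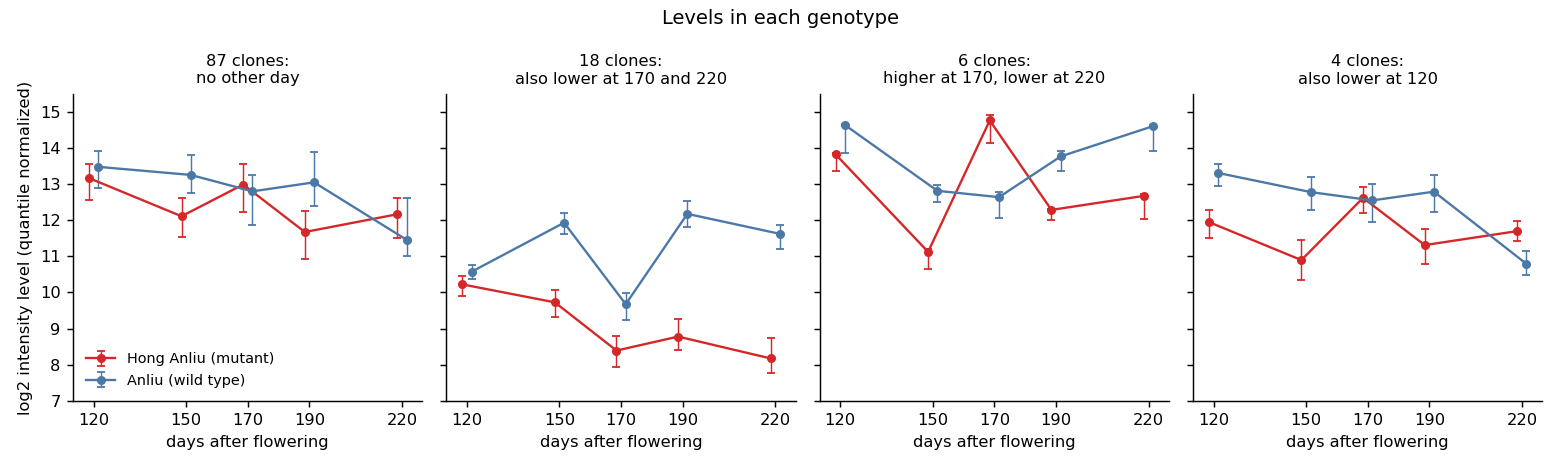
Median log2 level in Hong Anliu and Anliu by day after flowering, after quantile normalization, for 4 sets of clones. Whiskers span the 25th to 75th percentile over clones. In the set of 18 the mutant line falls to 8.17 at 220 days, against 11.63 in Anliu.

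The levels of each genotype, quantile normalized between channels and arrays, differed in course in the set of 18. The median log2 level in the mutant was 10.23, 9.73, 8.39, 8.78 and 8.17 from 120 to 220 days. The wild-type median was 10.58, 11.94, 9.68, 12.18 and 11.63. Mutant levels thus ended below where they began and wild-type levels above. The slope on days was negative in the mutant in 18 of 18 clones and in the wild type in 0 of 18, with medians of -2.05 and 0.91 per 100 days. Wild-type levels stood higher at 150 days than at both 120 and 170 days in all 18, against 1725 of all 5856 clones. The slopes use the choosing days, so they are a description. The 18 clones were among the dimmer ones, with a median at the 21.5th percentile of level over all clones.

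The set of 9 resembled the set of 18 with smaller ratios. Its medians were -0.24, -1.70, -0.46, -2.54 and -2.14 from 120 to 220 days. At 170 days its clones ranged from -1.11 to 0.42, and those of the set of 18 from -2.05 to -1.11. Wild-type level slopes were negative in 0 of 9 and mutant slopes in 9 of 9, against 2818 and 3255 of all 5856 clones. All 9 clones came from plates 30 to 61.

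The set of 87 made up most of the 127. The limit of -1 bounds its ratios on the choosing days, and the 2-fold calls bound them on the others. Its median log2 ratio was -0.46 ± 0.22, -1.21 ± 0.12, 0.12 ± 0.18, -1.30 ± 0.19 and 0.58 ± 0.50 from 120 to 220 days (± SD over 87 clones). The SD between the 3 single spots of a clone on an array was 0.13, 0.13, 0.12, 0.15 and 0.24. Each clone ratio is a mean over its spots and both arrays of a day. The SD between spots is thus of another unit and is not the error of a clone ratio. The SD over clones exceeded the SD between spots most at 220 days. On the array with the mutant in Cy5 the ratios at 220 days were -1.30, 0.55 and 1.23 as lowest, median and highest value. With the mutant in Cy3 they were -1.38, 0.63 and 1.0.

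At 220 days 57 of the 87 were above 0 on both arrays, with a median of 0.76, and 23 were below 0 on both, with a median of -0.25. No test compares these clones, which were parted by their values. Of the 57, 53 came from plates 30 to 61, and of the 23, 15 did. The median level lay at the 76.0th percentile for the 57 and at the 91.7th for the 23. At 120, 150, 170 and 190 days their medians lay closer together, at -0.45 and -0.47, -1.16 and -1.30, 0.11 and 0.16, and -1.33 and -1.12, with the 57 first. The highest ratio at 220 days belonged to 51.H.12, with 1.23 and 0.85. That clone had -0.39 and -0.40 at 120 days and -1.06 and -1.21 at 150 days. At 170 days it had 0.22 and 0.17, and at 190 days -1.45 and -1.34.

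In the set of 87 the mutant level dipped at both choosing days. Its median log2 level was 13.17, 12.12, 13.00, 11.68 and 12.17 in the mutant, against 13.49, 13.26, 12.81, 13.06 and 11.46 in the wild type. The mutant stood lower at 150 days than at both neighbouring days in 85 of 87 clones, against 2661 of all 5856. It stood lower at 190 days than at 170 and 220 days in 82 of 87, against 1879 of 5856. In the wild type, 84 of 87 were higher at 190 days than at both neighbours, against 1574 of 5856. At 150 days 22 of 87 were, against 1725 of 5856. At 150 days more of the 87 thus dipped in the mutant than peaked in the wild type. In the set of 18, 0 of 18 dipped in the mutant and all 18 peaked in the wild type. The choice and the 2-fold calls bound the ratios behind these counts, so the counts are a description. With the genotypes exchanged at 170 days, 83 of 87 and 4 of 18 dipped in the mutant, and 21 of 87 and 18 of 18 peaked in the wild type. The wild-type peak at 190 days then held in 64 of 87. At 190 days most of the 87 dipped in the mutant and most peaked in the wild type.

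The choice used the difference of the genotypes and not the level, taken here as their mean. The level still includes the signal of the choosing days, so a test of it is not independent of the choice. The slope of the level on days was fitted with limma over 5849 clones (n = 5 collections). Of the 127, 13 fell and 0 rose at an adjusted p under 0.05, against 0.701% of all clones falling and 2.80% rising. All 13 belonged to the set of 87 and were 31.7% of the 41 falling clones. Their slopes lay between -1.70 and -1.37 log2 units per 100 days, with adjusted p from limma between 0.0329 and 0.0494. The count was 0 without 120, 170, 190 or 220 days, and also 0 without replicate 1 or where control spots Y1 to Y4 gave the scale. It was 46 without 150 days, or 36.2% of the members, against 4.48% of all clones. Without replicate 2 it was 2 of 11 falling clones, and with levels scaled to the same median 29 of 88. Days were hybridised on separate arrays, so array and day cannot be told apart in a level.

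The steepest fall was in 53.B.12, at -1.70 per 100 days (SE 0.31, adjusted p from limma 0.0329). Its mutant level was 11.86, 10.70, 11.61, 10.08 and 10.71 from 120 to 220 days. Its wild-type level was 12.21, 11.88, 11.20, 11.53 and 9.81. The genotypes thus crossed: the mutant was lower at 120, 150 and 190 days and higher at 170 and 220 days. Clones 46.F.4, 46.F.10, 61.F.12 and 50.C.1 each had a slope of -1.66 and the same order of genotypes at each day. With the genotypes exchanged at 170 days, the mutant would be lower on that day in each of these clones and in 53.B.12. In 12 of the 13 clones the slope was steeper in the wild type than in the mutant. The same held in 76 of the set of 87 and in 2813 of all 5856 clones, so it is not particular to the 13. The largest upward slopes did not pass the test: 33.A.2 had 1.13 (SE 0.60, adjusted p from limma 0.308) and 54.D.12 had 0.33 (SE 0.50, adjusted p from limma 0.744). Clone 33.A.2 was the dimmest of the 127, at the 0.77th percentile of level over all clones. Without 120 days its slope was -0.0096.

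The set of 6 changed side most. Its medians were -0.95, -1.80, 1.93, -1.34 and -1.81 from 120 to 220 days. At 170 days its clones ranged from 1.79 to 2.22 and at 220 days from -2.06 to -1.44. The median log2 level in the mutant was 13.83, 11.13, 14.78, 12.29 and 12.68, against 14.65, 12.82, 12.65, 13.78 and 14.62 in the wild type. At 170 days the mutant level was thus at its highest and the wild-type level at its lowest. The median level of the 6 clones lay at the 87.5th percentile of all clones, so they were mostly bright. With the sign at 170 days turned, all 6 would be lower in the mutant on that day too.

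Clone 17.D.8 was higher at 120 days as well. Its log2 ratio was 1.16 and 1.67 at 120 days, -1.11 and -1.70 at 150 days and 2.56 and 2.48 at 170 days, the highest of the 127 there and the lowest with the sign turned. At 190 days it was -2.12 and -1.99, and at 220 days -1.26 and -1.17. Its sign differed between neighbouring days up to 190 days, on both dye orientations each time. The mean over 120, 170 and 220 days was 0.91 ± 1.92 (SD, n = 3 collections, adjusted p from limma 0.9999), and -0.77 with the sign at 170 days turned.

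Clone 29.B.10 was also higher at 120 days, with 1.41 and 1.40. At 150 days it had -1.06 and -1.10, and at 170 days 0.63 and 0.93. Then came -1.56 and -2.27 at 190 days and -0.33 and -0.69 at 220 days. These values crossed 0 between 120 and 150 days and again around 170 days. Clone 31.B.2 alone among the 127 was at least 2-fold lower on all 10 arrays in the labelled direction. Its values were -1.54 and -1.56 at 120 days, -2.46 and -2.28 at 150 days and -1.21 and -1.34 at 170 days. They were -2.0 and -2.19 at 190 days and -1.34 and -1.65 at 220 days. Its mean over 120, 170 and 220 days was -1.44 ± 0.14 (SD, n = 3 collections), and limma gave an unadjusted p of 0.0034 and an adjusted p of 0.9999. With the sign at 170 days turned it would be 2-fold higher there, at 1.21 and 1.34, and its mean -0.59.

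The set of 4 held 10.B.2, 25.A.7, 25.E.12 and 29.H.4. Its medians were -1.5, -1.86, 0.015, -1.41 and 0.83 from 120 to 220 days. All 4 were above 0 on both arrays at 220 days. The lowest at 120 days, 10.B.2, had -1.57 and -1.72 there and 1.11 and 0.87 at 220 days. Median levels in the mutant were 11.95, 10.90, 12.63, 11.32 and 11.70, against 13.32, 12.79, 12.56, 12.80 and 10.79 in the wild type. The wild-type level stood above the mutant level at 120, 150 and 190 days, and below it at 220 days.

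**Figure D4:**
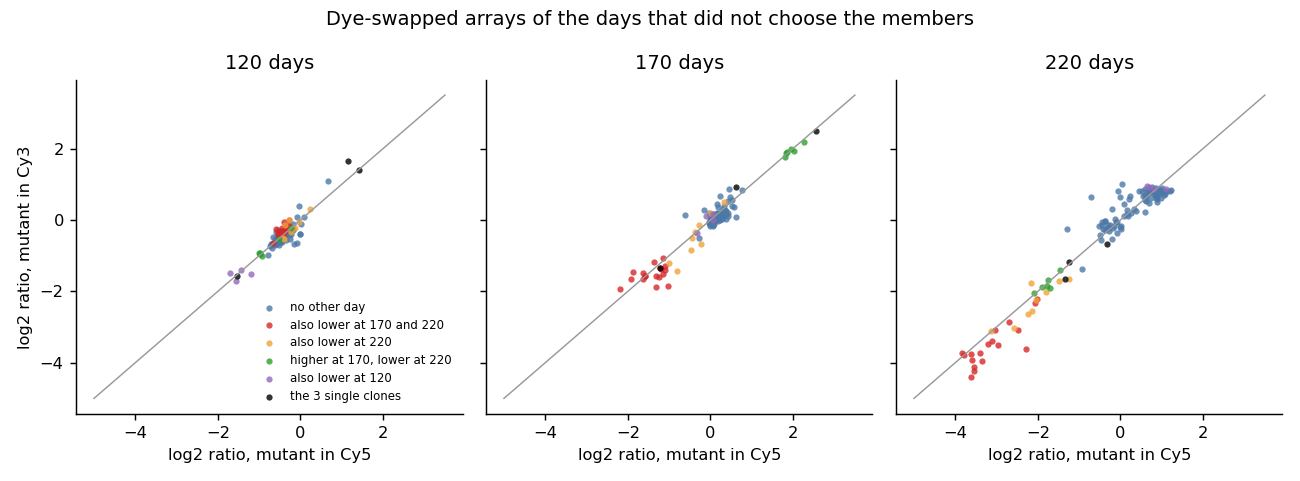
Log2 ratio of each of the 127 clones on the array with Hong Anliu in Cy5 (x axis) and in Cy3 (y axis) at 120, 170 and 220 days, coloured by set, with the line of equal values. The points follow the line on all 3 days, with r of 0.92, 0.97 and 0.98.

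The 127 clones were spread over 44 of 61 plates and 43 of 48 printing blocks, with at most 9 on a plate and 9 in a block. Plates 30 to 61 held 98 of them, or 77.2%, against 52.5% of all clones. The sets differed in this: the set of 87 had 71 clones on plates 30 to 61, while the sets of 6 and 4 had 0. Neighbouring wells of a plate held 22 pairs of members, with 33 clones in them. No background was counted for such pairs, so no clustering can be read from them. The files do not say what the plates are, and the part of plate or library in the shared profiles was not tested.

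Of the 127 clones, 125 stand in the authors' deposited table of lowess-normalized ratios. In the authors' deposited table their median linear ratio of mutant over wild type was 0.742, 0.415, 0.959, 0.389 and 1.19 from 120 to 220 days. At or below a linear ratio of 0.5 there were 19, 95, 17, 107 and 35 of them in the authors' deposited table. The table holds 1 ratio for both arrays of a day, while the choice used each array.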

How the data were processed

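Per the file headers, the authors deposited an intensity for every spot in each dye and a linear ratio of mutant over wild type. The deposited log2 series table equals the log2 of that ratio, from the values. Intensities reach below 0, so background had been subtracted. The scanner used and the background method were not given in the sources. From 5 µg of total RNA, amplified RNA was labelled with Klenow enzyme, per the labels' protocols.

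Between 8 and 33 clone spots of an array, with an intensity of 0 or less, were omitted. Log2 ratios were normalized by global loess within each array (span 0.3, controls at weight 0), turned to mutant over wild type and averaged over the 3 spots of a clone. Median clone intensity was 1036 to 3959 in the mutant and 2188 to 4556 in the wild type, and precision is limited by how few arrays there are. Dye-swapped arrays hold the same extracts and were averaged to 1 replicate. limma 3.58.1 (R 4.3.3, eBayes) was fitted over all clones, two-sided, with Benjamini-Hochberg adjustment and 2 residual degrees of freedom for the mean and 3 for the slope. Levels were quantile normalized between channels. Fits were also run on simulated data with independent noise. Recovery of calls was required there only for the largest planted changes, and not at the size of the members' mean ratios or slopes. The filter on dim clones, an alternative, asked that either dye exceed the 95th percentile of blank spots on at least 5 arrays. The members, sets and lists were chosen with earlier results of these data known. Named clones are the lowest on the choosing arrays, the lowest with the same sign on the other 6, the extremes of each other day, those at the limit, the extreme slopes, and the 5 most like the lowest. Clones 29.B.10, 31.B.2 and the set of 4 were named because their sets are that small. Alternatives were another normalization, the authors' series table, an offset of 50, control spots, spot and dim filters, saturated spots, left-out days and arrays, a random day block and a trended variance. Pathway lists could not be run, since clones carry no gene names.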

Additional observations from a re-analysis of the deposited data

Results flagged for a closer look

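Some clones differed in direction between days, on both dye orientations of each day. These differences were not tested, since each day has 1 pair of collections. Among the 127 clones, 7 were at least 2-fold lower at 150 and 190 days and 2-fold higher at 170 days. The choice fixed the calls at 150 and 190 days. At 170 days the 7 are 5.51% of the members, below the 7.94% of all clones that were 2-fold higher there. The same 7 were 2-fold higher at 170 days and 2-fold lower at 220 days, and they are the set of 6 and 17.D.8. With the sign at 170 days turned, they would be lower on that day. A further pattern concerned 120 days, where 2 clones, 17.D.8 and 29.B.10, were 2-fold higher. They are 1.57% of the members, below the 3.64% of all clones. At smaller ratios, 61 clones were above 0 on both arrays at 220 days and below 0 on both at 120 days. The share of all clones with both signs was not counted. Over all clones the ratios of 120 and 220 days correlated at -0.38, so opposite signs on these days are not particular to the members.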

How the results depend on the processing

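The mean over 120, 170 and 220 days called 0 of the 127 and 0 of all clones with limma under every alternative run, with the replicate number as a block and without a replicate block included. The replicate number marks the dye orientation, and arrays of 1 number deviated together on most days, with correlations of 0.07 to 0.41, over 0.1 in 9 of 10 pairs of days. Since 1 pair was below 0.1 and no label names a shared source, the numbers were not used to pair collections. Centring on the controls Y1 to Y4, which moves all clones together, gave 275 clones that meet the choosing limit, medians of -2.47 at 120 days, -0.53 at 170 days and 1.19 at 220 days, 124 lower and 0 higher at 120 days, 20 lower and 65 higher at 220 days, and a mean of -0.22 in 51.H.12. Relative to the median of all clones the members stayed at -0.45, 0.06 and 0.10 on those days. Loess within printing blocks left 84 clones at the limit, of which 65 were members, and medians of -0.34 at 120 days and -0.015 at 170 days. The authors' series table gave medians of -0.43, -0.070 and 0.20 and 17 lower at 120 days. The median at 120 days was -0.22 with median centring, -0.43 with an offset of 50 and -0.44 with the median of the spots. With median centring, 1 was higher at 220 days. With the sign at 170 days turned, 7 were lower and 19 higher there, the median was -0.082 and the mean of 17.D.8 was -0.77. The falling levels numbered 29 with median scaling and 0 against the controls. Leaving out each replicate or day in turn gave 0 to 46 falling levels, 0 to 8 clones higher at 220 days and a median at 120 days of -0.44. It gave a mean of -0.76 to 0.55 in 10.B.2 and -0.10 to 0.62 in 51.H.12, and a slope of -0.0096 to 1.96 in 33.A.2 and -0.0084 to 0.72 in 54.D.12. The exchange of genotypes at 170 days in the levels was chosen after seeing the data. The causes were not tested. The number of arrays limits every value.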

Other observations

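Clones outside the 127 shared their profiles. Over the 10 arrays, 103 clones correlated above r = 0.97 with the median profile of the set of 87, and 49 of these are members, all in that set. The other 54 missed the choosing limit, with a highest ratio at 150 and 190 days between -0.99 and -0.60. Of the 103, 100 came from plates 30 to 61. With the median profile of the set of 18, 24 clones correlated above r = 0.97, of which 16 are members, 14 of them in the set, and 8 are not. The highest ratio of those 8 at 150 and 190 days was between -0.12 and 0.51, so they share the shape and not the level. These correlations describe clones of shared arrays, and the set profiles were made from clones counted among the like ones.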
